A study of Mus musculus with 6 samples.

Results

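The endoplasmic reticulum folding and stress genes are 36 genes of protein folding, quality control and stress signalling in the secretory pathway. They were chosen by name, with earlier results of these data known. Each was represented by 1 probe set of the mouse expression array, namely the brightest on average over all arrays among those that the platform annotation gives to that gene alone. All 36 had such a probe set, out of 18194 genes that the table's 45101 probe sets name singly. All 36 were bright enough to be tested, among the 27022 probe sets tested in all. The gene listed as Ero1lb is called Ero1b in the annotation.

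Thyroid was microdissected from mice at postnatal day 15, and its RNA was hybridised to Affymetrix mouse 430 2.0 arrays. 3 arrays came from mice heterozygous for Slc26a4, which encodes the anion exchanger pendrin of thyroid follicular cells, and 3 from Slc26a4 knockouts. The controls thus carry 1 disrupted copy of Slc26a4, and no wild-type thyroid was analysed here. Sample numbers from the titles name the arrays: 1, 3 and 5 are heterozygous, and 2, 4 and 6 are knockout. These numbers state no order and no pairing. The sources used here do not give the strain or sex of the mice, how many animals made up each RNA, or which stretch of Slc26a4 was disrupted. Nothing says that the 3 samples of a genotype came from separate animals, so the p-values measure only the spread between these samples, which may be technical. The 1 probe set of Slc26a4 read between 2.10 and 15.7 on the 6 arrays. Background was taken as 22.9, the brightest value of 27 bacterial control probe sets (those named Dap, Lys, Phe, Thr, Trp and r2-Bs). The Slc26a4 probe set lay under it and so does not check the genotypes.

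Proteins destined for secretion enter the endoplasmic reticulum through the Sec61 channel and are folded there by chaperones, by disulfide isomerases and, where they carry N-glycans, by the calnexin and calreticulin cycle. Proteins that fail to fold are passed back to the cytosol for degradation (ERAD), and an excess of unfolded protein is sensed by Ern1 (IRE1), Eif2ak3 (PERK) and Atf6, whose signals raise the transcription of many of the same folding genes. The thyroid follicular cell depends on this machinery because it secretes thyroglobulin, a very large glycoprotein with many disulfide bonds on which thyroid hormone is made.

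Part of this set shares a short promoter element, the endoplasmic reticulum stress element (ERSE), whose known readers are NF-Y at CCAAT and ATF6 at CCACG. It was searched as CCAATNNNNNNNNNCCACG on both strands of the RefSeq promoters of assembly GRCm38.p6, from 250 bases before to 50 bases after each start. Of the 36 genes, 31 had a promoter in that table, and Hyou1, Manf, Derl1, Atf6 and Sec61a1 had none. The element was found in 9 of the 31 (29.0%), against 39 of all 32851 promoters in the table (0.119%). The 9 were Hspa5, Hsp90b1, Creld2, Dnajc3, Pdia6, Ero1lb, Calr, Canx and Syvn1, and Hsp90b1 held 2 copies. A match is a description of letters and does not show that a factor binds there.

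The copies of the 5 genes whose values are given array by array below are printed 5′ to 3′ to show what they share, with CCAAT and CCACG in capitals and the 9 spacer bases in lower case. The spacers differ from gene to gene.
Hspa5, 65 to 47 bases before the start, chr2:34772025-34772043, plus strand: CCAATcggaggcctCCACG
Hsp90b1, 212 to 194 bases before the start, chr10:86705638-86705656, minus strand: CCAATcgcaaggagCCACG
Hsp90b1, 107 to 89 bases before the start, chr10:86705533-86705551, plus strand: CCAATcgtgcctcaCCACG
Pdia6, 98 to 80 bases before the start, chr12:17266491-17266509, plus strand: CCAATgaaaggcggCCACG
Ero1lb, 201 to 183 bases before the start, chr13:12565682-12565700, minus strand: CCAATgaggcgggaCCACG
Calr, 162 to 144 bases before the start, chr8:84847075-84847093, plus strand: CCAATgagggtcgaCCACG

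The 250 bases before the starts of Hspa5 and Hsp90b1, the major lumenal chaperones, are shown in the direction of the gene to place the element in its promoter. Capitals again mark CCAAT and CCACG, which appear as CGTGG and ATTGG where the copy lies on the other strand.
Hspa5, chr2:34771840-34772089, plus strand: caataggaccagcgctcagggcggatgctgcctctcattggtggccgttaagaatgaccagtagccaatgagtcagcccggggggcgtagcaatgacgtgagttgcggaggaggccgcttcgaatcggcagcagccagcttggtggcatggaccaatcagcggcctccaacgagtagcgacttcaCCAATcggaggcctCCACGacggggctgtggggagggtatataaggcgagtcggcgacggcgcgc
Hsp90b1, chr10:86705445-86705694, minus strand: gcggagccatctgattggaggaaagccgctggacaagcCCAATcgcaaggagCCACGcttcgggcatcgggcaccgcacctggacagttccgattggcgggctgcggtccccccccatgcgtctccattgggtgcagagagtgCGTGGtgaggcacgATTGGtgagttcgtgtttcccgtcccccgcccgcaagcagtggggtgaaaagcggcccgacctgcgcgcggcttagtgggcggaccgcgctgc

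Other elements of the same response were found in few of these genes. ERSE-II, searched as ATTGGNCCACG, was found in Herpud1 and Dnajb11, 2 of 31 against 12 of all promoters (0.0365%). TTGCATCA, a form of the amino acid response element that ATF4 reads, was found in Herpud1 alone, against 294 of all promoters (0.895%). TGACGTGG, a form of the unfolded protein response element that XBP1 reads, was found in 0 of 31 and in 222 of all promoters (0.676%). These motifs were searched on both strands in the same windows, and no match says only that these letters are not in the window.

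**Figure D1:**
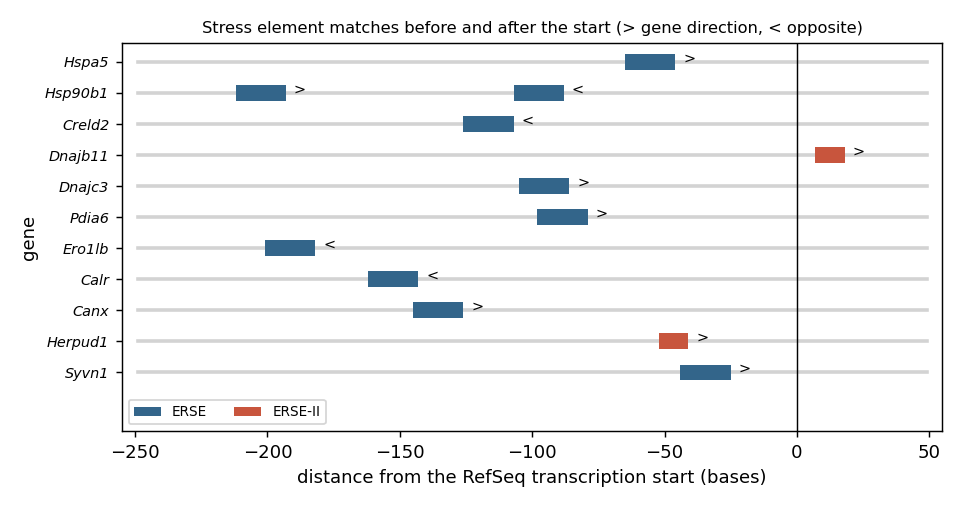
Matches of ERSE and ERSE-II (coloured boxes, with > or < for the strand) by distance from the RefSeq start in bases, for the 11 genes with a match. ERSE lies in 9 genes, with 2 copies in Hsp90b1, and ERSE-II in Herpud1 and Dnajb11.

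All 36 transcripts were far above the array background in all samples. Their signals, the deposited linear intensities, ran from 201 (Edem2, knockout 4) to 11387 (Calr, heterozygous 1), while the brightest control taken as background read 22.9. Thyroid follicular cell markers were present: 11 of 12 were measured, 0 of them under the background on all arrays, and thyroglobulin (Tg) read between 11795 and 13805. Markers of other tissues were also above the background. In the fat list, Fabp4 read between 10725 and 12548 and Ucp1 between 9211 and 11977. The authors had scaled each array to 1 trimmed mean of 500.002, and array medians ran from 78.1 to 103.6. Differences below are knockout minus heterozygous on the log2(signal + 16.7) scale, with 95% intervals from limma fitted to all probe sets tested.

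The folding and stress genes did not differ detectably between genotypes. Of the 36, 0 passed limma's adjusted p of 0.05, as did 0 of all 27022 probe sets tested (0.0%). At an unadjusted p under 0.05 the count was 0 of 36, against 138 of all probe sets (0.511%). The smallest unadjusted p was 0.260, for Xbp1, with an adjusted p of 1. The groups overlapped for all 36, whereas they did not overlap for 2.04% of all probe sets with knockout lower and 1.64% with knockout higher. The difference was under 0.1 in size for 31 of 36, and for all 36 it was smaller than the range within either genotype. The intervals reached from 0.157 to 0.540 on either side of the estimate (median 0.303), so no interval bound was below -0.53 or above 0.60.

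The signs leaned towards lower knockout means, and the size of that lean changed with the arrays included. The knockout mean was lower for 29 of 36 genes (80.6%), against 50.7% of all probe sets tested and 52.3% of the 15637 in the same range of brightness. The median difference was -0.05, a fold of 0.969, against -0.0021 over all probe sets. Without heterozygous 1, 12 of 36 were lower, against 54.4% of all probe sets, and the median was 0.0423. Without knockout 6, 16 of 36 were lower, against 55.1%, and the median was 0.00778. The lean grew when heterozygous 5 or knockout 2 was left out. Manf, Uggt1 and Herpud1 turned lower in both cases, with Ppib in the first and Sel1l in the second. When heterozygous 3 or knockout 4 was left out, 6 and 7 genes changed sign, in both directions. Groups separate more readily with fewer arrays. Leaving out heterozygous 5 gave 10 of 36 genes whose groups did not overlap, all lower in knockout, where 8.09% of all probe sets were so with knockout lower and 6.14% with knockout higher. Leaving out knockout 2 gave 4 lower, against 10.3% of all probe sets, and Ddit3 higher, against 7.38%. Without heterozygous 1, 0 were lower (5.13% of all) and 2 higher (3.62%), and without knockout 6, 1 was lower (8.64%) and 0 higher (4.45%). Without knockout 2, Xbp1 (-0.28) and Ddit3 (0.34) had unadjusted p-values of 0.0477 and 0.0410 by limma, a count of 2 of 36 where 3.46% of all probe sets were under 0.05. These counts describe a list chosen by name with earlier results of these data known, and they carry no test.

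**Figure D2:**
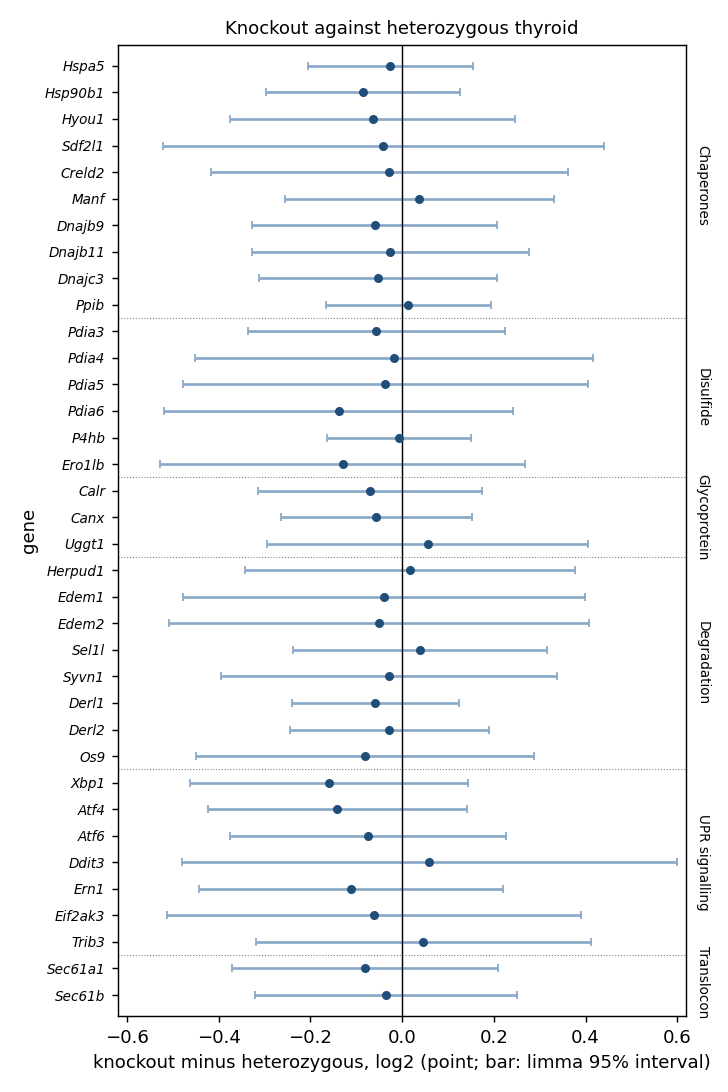
Knockout minus heterozygous difference (log2) of each of the 36 genes (points) with its 95% interval from limma (bars), by role. The estimates lie between -0.16 and 0.06, and all 36 intervals include 0.

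What varied was the array, and most of these genes varied together. 31 of 36 (86.1%) were brighter on heterozygous 1 and on knockout 2 than on heterozygous 5 and knockout 6, against 24.7% of all probe sets tested and 31.3% of those of like brightness. 27 of 36 were brightest on heterozygous 1, against 13.4% of all probe sets and 15.6% of those of like brightness. 27 of 36 were dimmest on heterozygous 5 or knockout 6, against 38.2% of all probe sets. For 9 of 36, heterozygous 1 and knockout 2 were the brightest pair and heterozygous 5 and knockout 6 the dimmest, against 3.45% of all. This grouping of arrays crosses the genotypes, joins consecutive sample numbers (1 with 2, 5 with 6) and was chosen after the values were seen, so the shares are a description. The labels do not pair the samples. Set against the neighbouring number (2 with 1, 4 with 3, 6 with 5), knockout was lower in all 3 for 7 of 36 genes, Hsp90b1, Pdia6, Ero1lb, Derl1, Xbp1, Atf4 and Sec61a1, against 10.3% of all probe sets, and higher in all 3 for Sel1l, against 7.54%. With these numbers as a block in limma, 0 of 36 were at an unadjusted p under 0.05, against 1.59% of all probe sets.

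As a median over the 36 genes, the deviation of an array from the gene's mean (log2) was 0.197 on heterozygous 1, 0.052 on heterozygous 3 and -0.147 on heterozygous 5. It was 0.087 on knockout 2, -0.023 on knockout 4 and -0.121 on knockout 6. The high array and the low array of each genotype thus lay further apart than the 2 genotypes. The brightest array exceeded the dimmest by a median of 1.38-fold, from 1.12-fold for Derl1 to 1.89-fold for Ddit3. Under quantile and cyclic loess normalization the count stayed at 31 of 36, and with a gene's probe sets averaged it was 27. Edem2, Syvn1, Derl2, Ddit3 and Trib3 were the genes outside the pattern.

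**Figure D3:**
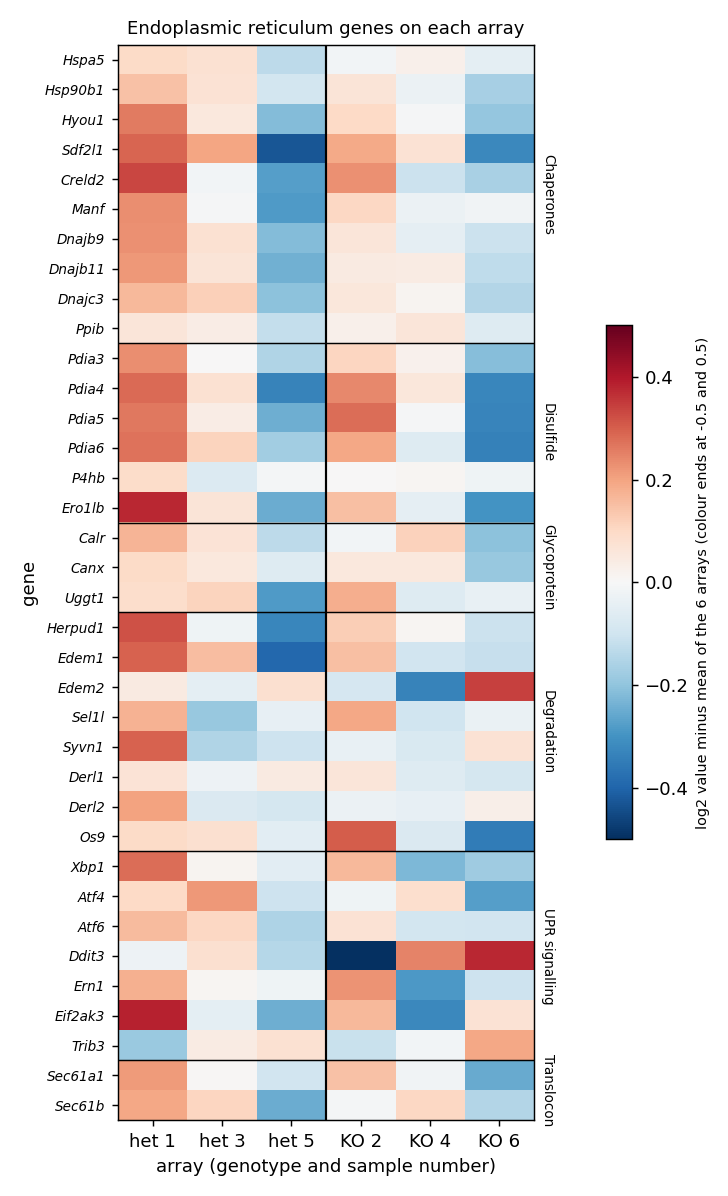
Deviation of each array from the mean of its gene (log2, colour) for the 36 genes in rows by role and the 6 arrays in columns. Most rows are high on heterozygous 1 and knockout 2 and low on heterozygous 5 and knockout 6. The chosen probe set of Trib3 is lowest on heterozygous 1 and highest on knockout 6.

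Among the 10 lumenal chaperones and their helpers, all 10 were brightest on heterozygous 1, and 8 had a lower knockout mean, with a median difference of -0.03. Hspa5 (BiP), the Hsp70 chaperone of the lumen and the partner that holds the stress sensors inactive, read 9406, 9269 and 8029 on heterozygous 1, 3 and 5 and 8713, 8948 and 8507 on knockout 2, 4 and 6. The genotypes overlapped, heterozygous 5 was the dimmest array, and the difference was -0.03 (-0.21 to 0.15). Hsp90b1 (GRP94), the Hsp90 chaperone of the lumen, read 7499, 7126 and 6345 on heterozygous 1, 3 and 5 and 7080.1, 6638 and 6037 on knockout 2, 4 and 6. Here heterozygous 5 and knockout 6 were both below the other 4 arrays, and the difference was -0.09 (-0.30 to 0.13). Sdf2l1, a partner of the BiP cycle, read 2853, 2669 and 1726 on heterozygous 1, 3 and 5 and 2655, 2445 and 1858 on knockout 2, 4 and 6, the widest spread among the chaperones at 1.65-fold. Its low arrays were again heterozygous 5 and knockout 6, and its interval was as wide as -0.52 to 0.44.

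The other 7 chaperones spanned less than Sdf2l1 from the dimmest to the brightest array. Creld2, a stress-induced lumenal protein, spanned 1.52-fold over the arrays and Manf, a stress-induced secreted and lumenal protein, 1.43-fold. Hyou1 (GRP170), the nucleotide exchange factor of BiP, spanned 1.39-fold. The J-domain partners of BiP spanned 1.37-fold (Dnajb11), 1.36-fold (Dnajb9) and 1.29-fold (Dnajc3). Ppib, the lumenal cyclophilin B, spanned only 1.13-fold. Of these 7, Manf (0.04) and Ppib (0.01) had the higher knockout means, and the rest had differences between -0.06 and -0.03.

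The 6 genes of disulfide formation varied most between arrays as a group, with a median span of 1.53-fold, and 6 of 6 had a lower knockout mean (median -0.05). Pdia4 (ERp72), a disulfide isomerase, read 4002, 3471 and 2606 on heterozygous 1, 3 and 5 and 3888, 3423 and 2621 on knockout 2, 4 and 6. Each genotype had a high, a middle and a low array at nearly the same levels, and the difference was -0.02 (-0.45 to 0.42). Pdia6, an isomerase that also acts on Ern1 signalling, read 2436, 2176 and 1784 on heterozygous 1, 3 and 5 and 2308, 1926 and 1590.0 on knockout 2, 4 and 6, with a difference of -0.14 (-0.52 to 0.24). Ero1lb, the oxidase that recharges the isomerases, read 4720.0, 3800.2 and 3055 on heterozygous 1, 3 and 5 and 4037, 3515 and 2947 on knockout 2, 4 and 6. Heterozygous 5 and knockout 6 were its dimmest arrays, and its difference was -0.13 (-0.53 to 0.27). Pdia5 spanned 1.52-fold and Pdia3 (ERp57), the isomerase that works with calnexin and calreticulin, 1.36-fold. P4hb, the classical isomerase, was nearly level at 1.12-fold, with group means of 7532 ± 429 and 7491 ± 90.6 (SD, n = 3).

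In glycoprotein quality control, Calr and Canx had lower knockout means and Uggt1 a higher one (median of the 3, -0.06). These signs depended on the probe set: another one gave 0.07 for Calr, 0.02 for Canx and -0.09 for Uggt1. The remaining probe set gave -0.04 for Calr and -0.12 for Canx, and that of Uggt1 was too dim to be tested. Calr (calreticulin), the soluble lectin chaperone, read 11387, 10621 and 9239 on heterozygous 1, 3 and 5 and 10042, 10965 and 8781 on knockout 2, 4 and 6. Knockout 4 and heterozygous 1 were its high arrays, and the difference was -0.07 (-0.31 to 0.17). Uggt1, which re-tags misfolded glycoproteins for another round of folding, read 699, 713 and 538 on heterozygous 1, 3 and 5 and 748, 629 and 642 on knockout 2, 4 and 6. Heterozygous 5 stood lowest and knockout 2 highest, and the difference was 0.06 (-0.29 to 0.41). Canx (calnexin), the membrane-bound lectin chaperone, read 6499 ± 369.7 in heterozygous and 6261 ± 587 in knockout samples (SD, n = 3).

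The 8 ERAD genes were the least uniform of the larger groups, with 5 of 8 following the array pattern and 6 of 8 lower in knockout (median -0.03). Edem1, which hands mannose-trimmed glycoproteins to degradation, read 1067, 966 and 656 on heterozygous 1, 3 and 5 and 963, 809 and 798 on knockout 2, 4 and 6. It was low on heterozygous 5, and the difference was -0.04 (-0.48 to 0.40). Derl1, a subunit of the retrotranslocation channel, read 4238, 3972 and 4161 on heterozygous 1, 3 and 5 and 4216, 3866 and 3799 on knockout 2, 4 and 6. Its span from the dimmest to the brightest array was the smallest of all 36 genes, and its difference was -0.06 (-0.24 to 0.12). Herpud1, a stress-induced scaffold of the ubiquitin ligase complex, spanned 1.56-fold in the common order of arrays, and the lectin Os9 1.57-fold. Sel1l, the ligase's adaptor, read 3693 ± 473 and 3791 ± 414 and its catalytic partner Syvn1 (HRD1) 469 ± 85.3 and 456 ± 25.7 in heterozygous and knockout samples (SD, n = 3). Derl2 spanned 1.22-fold. Edem2 was brightest on knockout 6 (332) and dimmest on knockout 4 (201).

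The sensors and transcription factors of the unfolded protein response included the largest differences between genotypes of the whole set, although none was beyond the spread of the arrays. Of the 7, 5 had a lower knockout mean (median -0.07). Xbp1, the transcription factor made active when Ern1 splices its mRNA, read 4955, 4115 and 3927 on heterozygous 1, 3 and 5 and 4562, 3488 and 3608 on knockout 2, 4 and 6. Knockout 2 was above heterozygous 3 and 5, so the groups overlapped, and the difference was -0.16 (-0.46 to 0.14). Its other 3 probe sets gave -0.08, -0.01 and 0.02. Spliced and unspliced Xbp1 mRNA were not told apart here, so these signals are not read as a measure of Ern1 activity.

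Ern1, the sensor that splices Xbp1, read 1859, 1653 and 1614 on heterozygous 1, 3 and 5 and 1920.0, 1339.6 and 1526 on knockout 2, 4 and 6. Knockout 2 was its brightest array and knockout 4 its dimmest, and the difference was -0.11 (-0.44 to 0.22). Atf4, the factor translated when Eif2ak3 phosphorylates the initiation factor eIF2, read 4330.3, 4695 and 3754 on heterozygous 1, 3 and 5 and 3984, 4282 and 3333 on knockout 2, 4 and 6, with a difference of -0.14 (-0.42 to 0.14). A second bright probe set of Atf4 gave -0.02, so the size of its difference depended on the probe set. The sensors Atf6 and Eif2ak3 (PERK) spanned 1.24-fold and 1.64-fold over the arrays, with differences of -0.07 and -0.06.

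Ddit3 (CHOP) and Trib3, a pair of genes known for their induction downstream of Atf4 under prolonged stress, did not share the order of the folding genes over all 6 arrays. Ddit3 read 638, 687 and 586 on heterozygous 1, 3 and 5 and 442, 774 and 849 on knockout 2, 4 and 6, the widest span of the set at 1.89-fold. Knockout 2 was its dimmest array and knockout 6 its brightest, and the difference was 0.06 (-0.48 to 0.60). Its second probe set read 185, 308 and 258 on heterozygous 1, 3 and 5 and 171, 211 and 516 on knockout 2, 4 and 6, with the same arrays at either end. Trib3 read 272, 322 and 330.1 on heterozygous 1, 3 and 5 and 288, 309 and 359.8 on knockout 2, 4 and 6, with heterozygous 1 lowest and knockout 6 highest. The dimmer probe set of Trib3 read 170, 192 and 208 on heterozygous 1, 3 and 5 and 198, 184 and 185 on knockout 2, 4 and 6. Heterozygous 1 was again lowest there, but heterozygous 5 was highest and knockout 6 lay below knockout 2. Within the heterozygous arrays, the brighter probe set of Ddit3 was lowest on heterozygous 5, as most folding genes were. The second probe set of Ddit3 was lowest on heterozygous 1 instead. Among the knockouts, the order of both differed from that of most folding genes. Trib3 was chosen for this account after its values were seen.

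**Figure D4:**
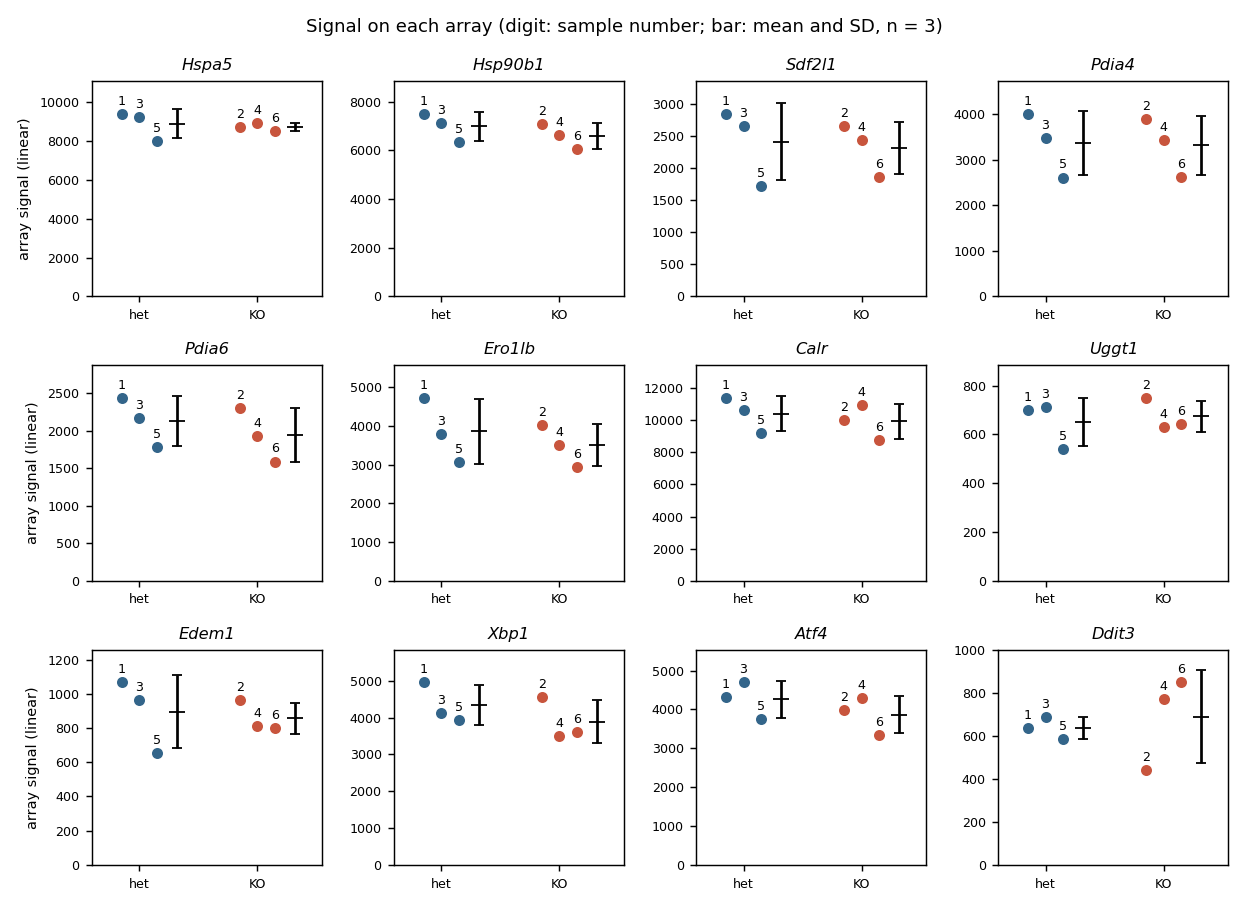
Signal (linear, each axis from 0) on each of the 6 arrays for 12 of the genes given array by array, with the mean and SD of each genotype as bars (n = 3). The points of the 2 genotypes overlap in each panel, and Ddit3 has knockout 2 lowest and knockout 6 highest.

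In the translocation channel, both subunits measured had lower knockout means (median -0.06). Sec61b, the tail-anchored beta subunit, read 7879, 7432 and 5804 on heterozygous 1, 3 and 5 and 6843, 7410.5 and 6232 on knockout 2, 4 and 6. Heterozygous 5 and knockout 6 were below the other 4 arrays, and the difference was -0.03 (-0.32 to 0.25). Sec61a1, the pore-forming alpha subunit, read 3833 ± 425 and 3630.0 ± 499 in heterozygous and knockout samples (SD, n = 3).

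Over all their probe sets, the genes likewise showed no call. The 36 genes have 90 probe sets in all, and 8 genes have 1 each. Of the 90, 81 were tested, 59 of those had a lower knockout mean, and their median difference was -0.04. 0 of the 81 were at an unadjusted p under 0.05 by limma, and for 0 of 81 did the groups separate.

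Genes with and without the stress element had similar medians. The 9 genes whose promoter held an ERSE had a median difference of -0.06 and 9 of 9 were lower in knockout, while the 22 without had a median of -0.04 and 16 of 22 were lower. The median deviation on heterozygous 1 was 0.169 with the element and 0.197 without, and on knockout 6 it was -0.165 and -0.107. No test was made of this split.

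Among other genes of the secretory pathway, the signs were closer to even. Of 117 further genes in 5 lists, 112 had a probe set of their own and 110 were tested, of which 60 had a lower knockout mean, with a median of -0.0091. 0 of 110 were at an unadjusted p under 0.05 or passed the adjusted threshold (limma). The array pattern was found in 58 of 110 (52.7%), between the 86.1% of the folding and stress genes and the 24.7% of all probe sets. It was found in 81.2% of the genes of N-glycosylation and glucosidases, 65.0% of those of the translocon and signal peptidase and 59.3% of other folding enzymes. It was found in 33.3% of other ERAD genes and 34.5% of other stress signalling genes.

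In the translocon and signal peptidase list, 12 of 20 tested genes were lower, with a median of -0.0091. Spcs1, a subunit of signal peptidase, read 5358 ± 159.6 in heterozygous and 5738 ± 191 in knockout samples (SD, n = 3), a difference of 0.10, and its groups did not overlap. The differences were 0.05 for the translocon-associated Ssr3, -0.11 for Sec63, which recruits BiP to the channel, and -0.08 for Spcs2. In the N-glycosylation list 10 of 16 were lower, with a median of -0.02. Dpagt1, which starts the lipid-linked glycan, had a difference of 0.15, the glucosidase Mogs 0.06, the oligosaccharyltransferase subunit Magt1 -0.08 and the lectin Mlec -0.07. Among other folding enzymes 15 of 27 were lower, with a median of -0.0066. Txndc12 (ERp18) read 1207 ± 41.9 in heterozygous and 1382 ± 68.9 in knockout samples (SD, n = 3), a difference of 0.19, and Fkbp9 had 0.07, and for both the knockout arrays were all above the heterozygous ones. The chaperone-like Tor1a had -0.13 and Sdf2, a relative of Sdf2l1, -0.08.

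Among other ERAD genes 9 of 18 were lower, with a median of 0.0037. The ubiquitin-conjugating enzyme Ube2g2 (0.10) was higher and the ubiquitin ligase Rnf5 (-0.09) lower in all 3 knockout samples than in all 3 heterozygous ones. Nploc4, a cofactor of the Vcp segregase, had a difference of 0.06, and Derl3 of -0.27. The 5 genes of the 110 whose groups did not overlap were therefore Spcs1, Txndc12, Fkbp9 and Ube2g2, higher, and Rnf5, lower. That is 4 of 110 higher, against 1.64% of all probe sets, and 1 lower, against 2.04%, so they are values and not calls. Among other stress signalling genes 14 of 29 were lower, with a median of 0.02. The transcription factor Cebpb had the smallest unadjusted p of the 110, 0.065 by limma, at 1094 ± 274 in heterozygous and 1462 ± 255 in knockout samples (SD, n = 3), a difference of 0.43 (-0.03 to 0.89), and its arrays overlapped. The oxidative stress factor Nfe2l2 had a difference of 0.18, Creb3l2 -0.16 and the secreted Stc2 -0.19. Ern2 and Slc7a11 were too dim to be tested.

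**Figure D5:**
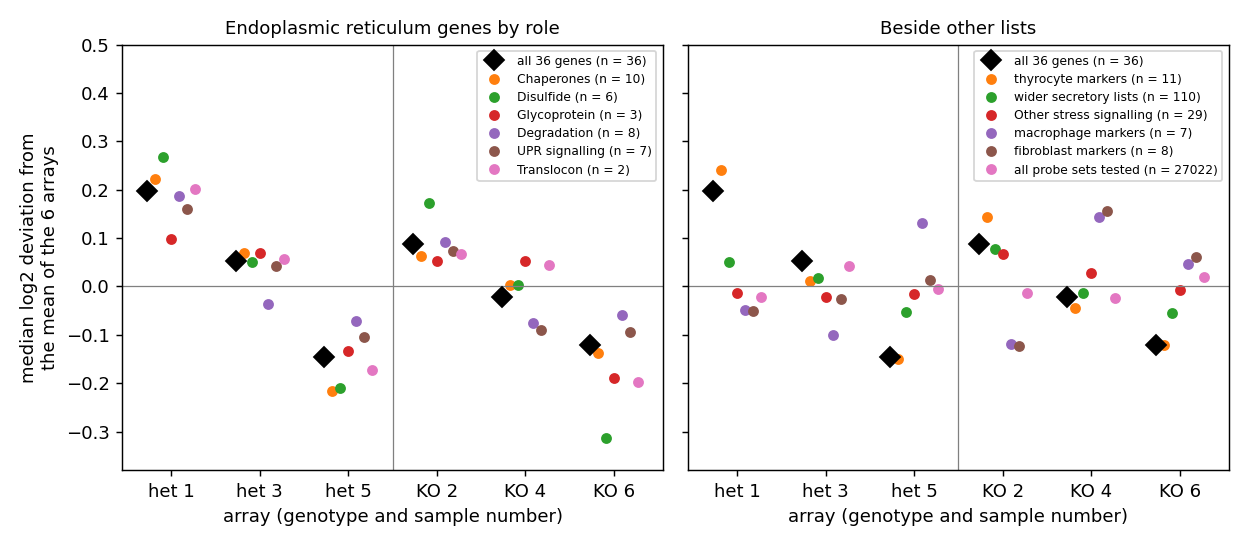
Median deviation of each array from the mean of the 6 arrays (log2, vertical axis) for the 36 genes (diamonds) and their role groups on the left, and beside other lists and all probe sets tested on the right. The diamonds are highest on heterozygous 1 (0.197) and lowest on heterozygous 5 (-0.147), and the thyrocyte markers lie near them on all 6 arrays.

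Markers of the cell types a dissected thyroid could hold also differed between arrays. The thyroid follicular cell list followed the order of the folding genes in its medians, but not in every marker. 8 of 11 markers were brighter on heterozygous 1 and knockout 2 than on heterozygous 5 and knockout 6, Tshr only narrowly. The exceptions were Tg, Pax8 and Nkx2-1, each dimmer on knockout 2 than on knockout 6. Tg was dimmest on knockout 2, with a deviation of -0.108 there and -0.009 on knockout 6. The list's median deviations were 0.242, 0.011 and -0.150 on heterozygous 1, 3 and 5 and 0.144, -0.044 and -0.120 on knockout 2, 4 and 6. The summed signal of its markers ran from 40998 to 50331 in heterozygous and from 39868 to 48824 in knockout samples, where the folding and stress genes summed to 120833 to 152500 and 122024 to 141101. In bulk tissue, fewer cells of a type and less RNA per cell cannot be told apart.

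Markers of some other tissues varied with the same arrays. Of 10 skeletal muscle markers, 9 had the pattern, and their sum ran from 22339 to 42935 in heterozygous and from 7425 to 42311 in knockout samples. All 3 C cell markers measured had it, with sums of 3394 to 7193 and 2401 to 5650. Of the 7 tested markers of plasma cells, which are rich in endoplasmic reticulum, 28.6% had it, Derl3 of the ERAD list among those tested, and the sum over the list ran from 3475 to 3925 and from 2778 to 4249. 0 of the 8 fibroblast and 0 of the 7 macrophage markers had it, with sums of 44490 to 46502 and 16727 to 19861 in heterozygous and 43049 to 51853 and 17303 to 19497 in knockout samples. The parathyroid list summed to 990 to 16366 and 3406 to 16851, and the thymus and T cell list to 178 to 241 and 168 to 4491, with knockout 4 high. The pattern was found in 0 of 6 fat, 0 of 2 erythroid and 2 of 4 cartilage markers tested. The fat list summed to 31704 to 37093 in heterozygous and 29583 to 38518 in knockout samples. Its median deviations were -0.048, -0.210 and 0.153 on heterozygous 1, 3 and 5 and -0.190, 0.121 and 0.228 on knockout 2, 4 and 6. In these medians heterozygous 1 and knockout 2 thus lay below heterozygous 5 and knockout 6. The part of these cell types in the order of the folding genes was not tested.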

How the data were processed

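The authors deposited a linear intensity for each probe set on each array, made with GCOS per the submitters' processing notes. The sources used here give neither its version nor its settings. RNA was amplified by the NuGEN Ovation method per the labels' protocols. The mean after trimming 2% at each end was 500.002 on all 6 arrays, so a change shared by most transcripts would have been removed. The number of arrays, 3 per group, limits the precision.

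The values were used as log2(signal + 16.7), 16.7 being the 25th percentile of all values, which understates the change of a dim gene. After removal of 64 controls, the 27022 of 45037 whose mean lay above the 40th percentile were tested with limma 3.58.1 in R 4.3.3 (lmFit and eBayes with trend, Benjamini-Hochberg over 27022). The fit was tested on simulated data with independent noise on each array. That noise lacks an array pattern shared by genes, so the simulation does not show how the fit behaves under one. An exact permutation test of 3 against 3 cannot go below 0.1 and was not used. Gene names came from the platform annotation.

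The 36 genes and all lists were chosen with earlier results of these data known. Values on all arrays are given for Hspa5, Pdia4 and Xbp1, for the 8 members of smallest unadjusted p, and for the member of largest residual spread in each role group. In the wider lists, up to 2 genes of smallest p in each direction are named. Edem2, Trib3 and others beyond this rule were named after their values were seen. Alternatives were normalization, pseudocount, filter, variance model, array weights, choice of probe set, leaving out each array, and a block added after seeing the data.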

Additional observations from a re-analysis of the deposited data

How the results depend on the processing

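Limma called 0 probe sets, and so 0 of the 36 genes, under each alternative that refitted the table. Leaving out each array in turn, the count of genes with a lower knockout mean ran from 12 (without heterozygous 1) to 33 around the 29 of the full set, and it was 16 without knockout 6. The count whose groups did not overlap ran from 0 to 10, with 2 without heterozygous 1 (8.76% of all probe sets, both directions), 10 without heterozygous 5 (14.2%), 5 without knockout 2 (17.6%) and 1 without knockout 6 (13.1%). The count at an unadjusted p under 0.05 ran from 0 to 2, the 2 without knockout 2 (3.46% of all). Quantile and cyclic loess normalization gave 28 and 29 lower, and array weights 33. Of 612 gene values over 17 alternatives, 611 moved by less than the residual SD, 76 changed sign, and 5 of 36 genes kept their sign under each of these alternatives. The filter and the variance model cannot move a difference. Leaving out 1 array of a group of 3 cannot move it by as much as the residual SD. The count of 611 was thus fixed in advance for most alternatives and is no measure of stability. The value that moved by more than the residual SD was Atf4, 0.0524 with the mean of all probe sets. That setting averages in probe sets too dim to be tested. For Atf4 the untested one read between 4.19 and 22.1 and gave 0.32, where its tested probe sets gave -0.14 and -0.02. The count of genes in the array pattern, recomputed under settings added after seeing the data, was 31 under each except the mean of all probe sets, 27. All 36 genes read above the bacterial controls taken as background on each array. The genotypes share no sample number, so the labels state no pairing. A replicate block of consecutive numbers (1 with 2, 3 with 4, 5 with 6), added after seeing the data, gave 0 probe sets called and 0 of 36 genes at an unadjusted p under 0.05 (1.59% of all), the smallest 0.0787 for Xbp1 by limma. Over all probe sets tested, deviations from the group means correlated at 0.265, -0.206 and 0.144 within these pairs. For the other pairings of a heterozygous with a knockout array, the correlations ran from -0.285 to 0.12. Deviations from a group mean balance within the group, so these values cannot decide whether the numbers pair the samples.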
